A study of Mus musculus with 21 samples.

Results

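Complement is a cascade of secreted proteases and binding proteins that tags cells for removal. In the classical pathway the proteases C1r and C1s are carried by C1q. C1r activates C1s, which cuts C4 and C2, and the product cuts C3, the component on which every pathway converges. The alternative pathway amplifies C3 cleavage through factor B, and secreted or membrane-bound inhibitors hold the cascade back on host cells. Liver makes most of the circulating proteins, and fibroblasts and other mesenchymal cells are known local sources of several of them.

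Described here are 8 genes of this system, chosen by name and not by their values: C1ra and C1s1 (proteases of the first complex), C4b and C2 (parts of the classical C3 convertase), C3, Cfb (factor B), Serping1 (C1 inhibitor) and Cd55 (decay-accelerating factor). All 8 of 8 were found among the 26852 genes measured by RNA-seq in 21 libraries of Nes low mesenchymal cells sorted from mouse bone marrow by their labels, although the extraction text speaks of CD31+ endothelial cells. Hosts were unconditioned Nestin GFP-NSG mice, which carry GFP as a reporter of Nestin, transplanted at 8 to 12 weeks of age. NSG mice lack mature T, B and NK cells, and their NOD background is known to lack functional C5, so the host cannot show how a complete cascade would act. The 3 ctrl libraries came from mice without leukemia. The other 18 came from mice carrying HL60 or ML1, both established human acute myeloid leukemia lines, engineered to release a lipid-permeable mCherry that neighbouring cells take up. Early cells were sorted as ch+ (mCherry taken up) or ch- (not taken up), and late cells were isolated late in leukemic progression with no mCherry gate. Each line gave 3 early ch-, 3 early ch+ and 3 late libraries. The treatment label of the 3 ML1 late libraries reads as not engrafted, against their titles and time point, and they were kept as ML1 late. Each library has a replicate number of its own, but the labels do not say which libraries came from the same mouse and give no sorting or sequencing batch. The study took ch- cells from the marrow that also held ch+ cells, but the labels do not pair early libraries. All tests were unpaired, and the p-values below measure spread between libraries.

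Values are the authors' regularized levels, read here as log2, in which 1 unit is a doubling. The study's text names log10 instead, and log2 was inferred from the range of -2.33 to 22.44, whose top would be an impossible count on a log10 scale. They were not whole reads, so the depth per library is unknown. Summed on the linear scale, the levels came to 11900000 to 14200000 in ctrl, 11200000 to 14700000 in the early libraries and 7260000 to 9020000 in the late ones. Libraries of 1 group resembled each other to a like degree (mean Pearson r across 12976 genes of 0.94 to 0.97 with the others of the group), and none stood apart by that measure.

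The labelled cell type was checked against markers. All 9 of 9 listed markers of CXCL12-abundant reticular (CAR) and stromal cells were present, and their summed level, led by Cxcl12, was 15.50 to 16.12 in ctrl and 16.77 to 17.06 in late libraries. Early ch- libraries had 15.57 to 16.50 and early ch+ libraries 16.24 to 16.83. This list was therefore higher in every late library than in every ctrl library. In late against ctrl cells, 6 of the 9 genes rose, 1 fell and 2 did not pass the test. In early ch+ against ctrl cells, 5 rose and 4 did not pass. Lepr, the leptin receptor that marks these cells, was among those that rose in late cells, and Nes was among those that did not pass.

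Markers of other skeletal cells moved the other way. The osteoblast list (8 of 8 present, led by Col1a1) summed to 20.25 to 20.70 in ctrl and 16.30 to 18.99 in late libraries, and 6 of its 8 genes fell in late cells while 1 rose. The chondrocyte list (8 of 8, led by Col2a1) fell from 16.06 to 17.19 in ctrl to 12.94 to 14.64 in early ch+ and 11.38 to 13.85 in late libraries, with 8 of 8 genes lower in both comparisons with ctrl. The smooth muscle list (6 of 6, led by Rgs5) had 5 of 6 genes lower in early ch+ and 4 of 6 lower in late than in ctrl cells. RNA of these skeletal cell types thus differed between groups. Fewer cells of a type and less RNA per cell cannot be told apart in such bulk samples, and the part of these shifts in the complement values was not tested.

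Blood cell markers marked out both early groups. The leukocyte list (9 of 9 present, led by Lyz2) summed to 8.07 to 9.32 in ctrl, 10.70 to 11.70 in early ch-, 10.24 to 11.52 in early ch+ and 6.85 to 8.04 in late libraries. The red cell list (6 of 7, led by Hbb-bs) summed to 7.81 to 9.09 in ctrl, 11.93 to 12.96 in early ch-, 11.65 to 13.25 in early ch+ and 6.18 to 6.64 in late libraries. Early libraries of either label were thus above ctrl and late libraries in both lists, although hematopoietic cells had been depleted on magnetic beads and the rest stained for CD45 and Ter119 before sorting. Of the macrophage list (7 of 8 present, led by Mrc1), C1qa was at -1.49 to -1.38 and Vsig4 at -2.26 in all 21 libraries, near the bottom of the scale. The endothelial list (6 of 6, led by Cdh5) summed to 7.25 to 8.60 over all libraries. Of its 5 tested genes limma called 0 in late against ctrl cells, with 1 at an unadjusted p under 0.05, and of 2 tested macrophage genes 1 fell. In the same comparison limma called Lyz2 (-1.16 log2), Mpo (-1.46) and Ngp (-1.63) of the leukocyte list lower. Hba-a1 (-2.39) and Hbb-bs (-2.96) of the red cell list were lower too, and the other tested genes of both lists did not pass.

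**Figure D1:**
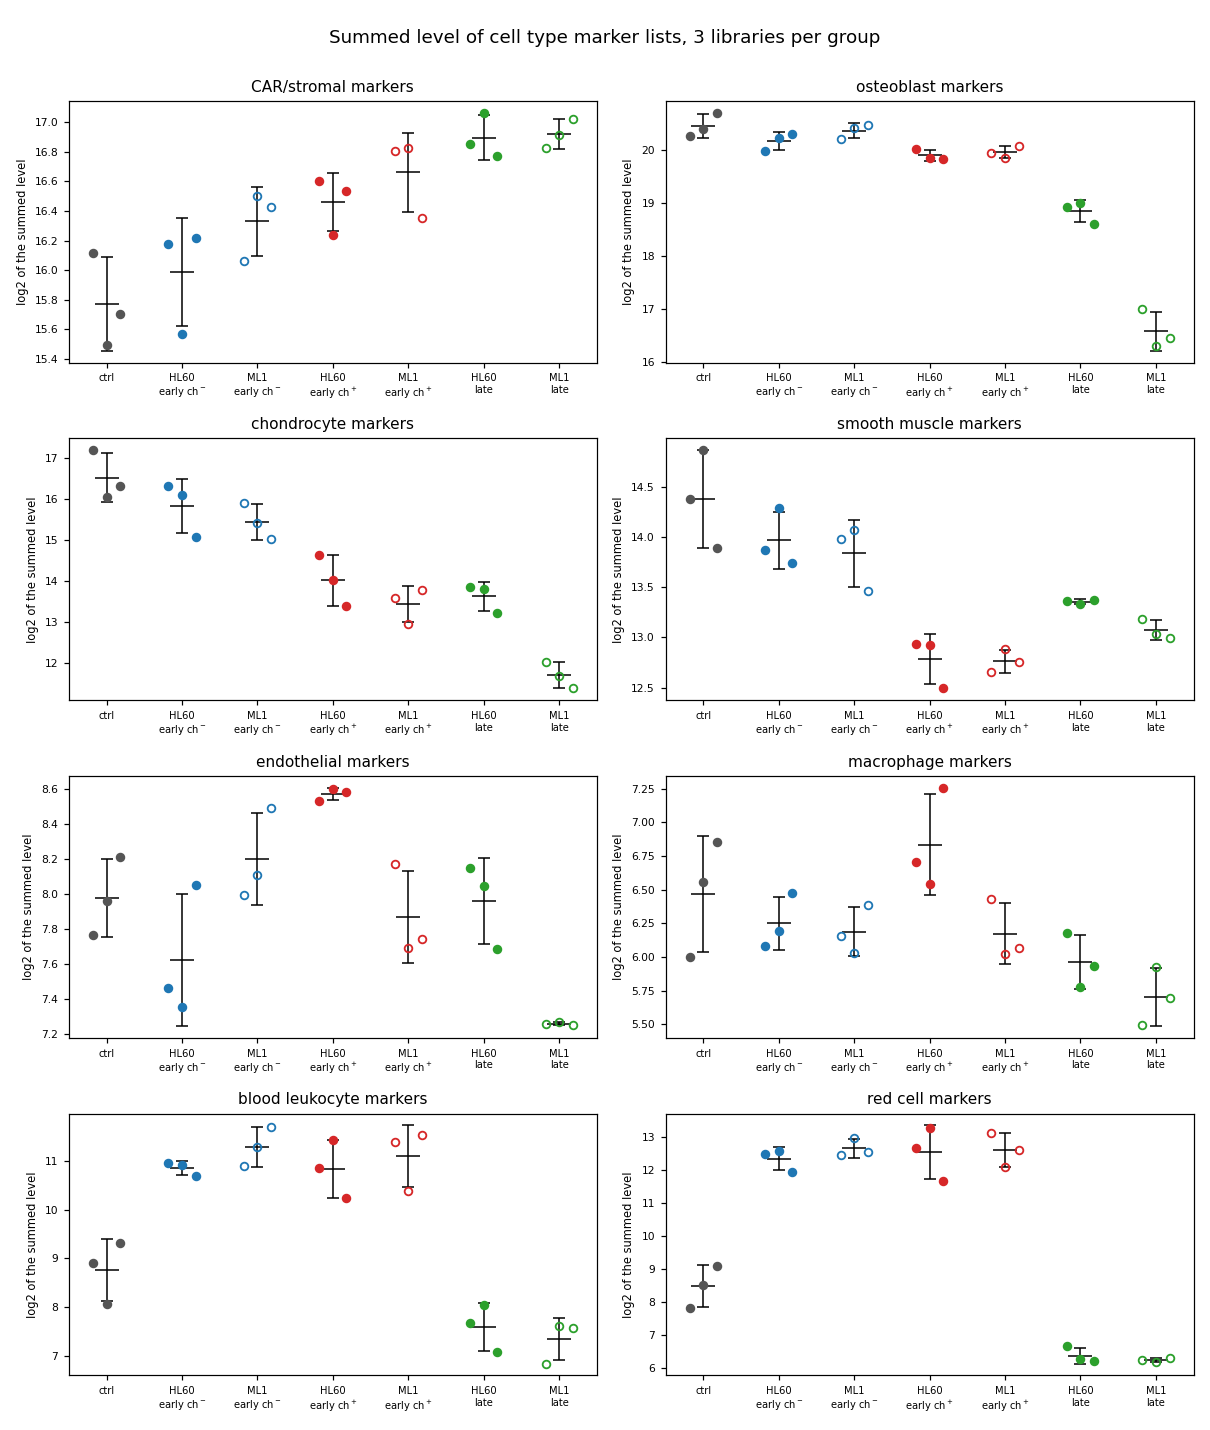
Summed level of each cell type marker list (log2 of the sum of linear levels, vertical axis) in every library, by group (horizontal axis). Points are libraries, filled for ctrl and HL60 and open for ML1, and the bars give the mean and SD of 3 libraries; the CAR/stromal list climbs from 15.50 to 16.12 in ctrl to 16.77 to 17.06 in late libraries, and blood markers peak in both early groups.

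Per kilobase of annotated exon, the members spanned a wide range of abundance. In ctrl cells the mean level per kilobase (log2) was 11.90 for Serping1, 9.28 for C4b, 7.73 for C1s1, 7.56 for C1ra, 7.004 for Cd55, 6.59 for C3, 5.67 for Cfb and 5.36 for C2. In late cells the same scale gave 12.88 for Serping1, 10.56 for C4b, 8.79 for C1ra, 8.75 for C1s1, 7.33 for C3, 7.18 for Cfb, 7.16 for Cd55 and 6.13 for C2. The C1 inhibitor and C4b were thus the most abundant members in both conditions. In late cells C1ra and C1s1 differed by less than their spread (SD 0.23 and 0.16, n = 6), as did C3, Cfb and Cd55 (SD 0.49, 0.27 and 0.23, n = 6).

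The late niche was compared with ctrl to see what heavy leukemic burden left in these cells. Of the 8 members, 6 rose (C1ra, C1s1, C4b, C3, Cfb and Serping1), 0 fell, and C2 and Cd55 did not pass the test. Across the 12976 genes tested, 10.2% rose and 11.4% fell in the same comparison. The median change of the members was 1.00 log2, and that of all genes 0.02. At an unadjusted p under 0.05, 7 of 8 members and 27.6% of all genes passed. Late and ctrl libraries did not overlap for 5 of 8 members and for 19.1% of all genes. All comparisons with ctrl share the same 3 ctrl libraries.

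Serping1, whose product inactivates C1r and C1s, had log2 levels of 13.34, 13.09 and 12.91 in ctrl and of 13.97 to 14.22 in late libraries (median 14.08). Every late library was above every ctrl library. The rise was 0.98 log2 (SE 0.16), or 1.97-fold, in late against ctrl cells (limma, adjusted p = 3.04e-05).

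C1s1, the protease that cuts C4 and C2, had levels of 9.37, 9.51 and 9.25 in ctrl and 10.18 to 10.54 (median 10.44) in late libraries. C1ra, which activates C1s, had 9.27, 9.12 and 9.02 in ctrl and 10.10 to 10.65 (median 10.39) in late libraries. For either protease the late libraries were all above ctrl, with no overlap. C1s1 was 2.03-fold higher (log2 1.02, SE 0.17, adjusted p = 4.15e-05) and C1ra 2.35-fold higher (log2 1.23, SE 0.21, adjusted p = 8.3e-05) in late cells. The genes lie tail to tail on chromosome 6 (GRCm38), C1ra at chr6:124512405-124523443 on the plus strand and C1s1 at chr6:124530345-124542359 on the minus strand, with 6901 bases between them.

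C4b, the source of the C4 fragment of the classical convertase, had levels of 12.28, 11.54 and 11.54 in ctrl and 12.78 to 13.40 (median 13.02) in late libraries. Ctrl replicate 373 was the highest of the 3 ctrl libraries and still below all late ones. The rise was 2.43-fold (log2 1.28, SE 0.19, adjusted p = 1.47e-05).

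C2, the protease of the same convertase, had levels of 8.01, 6.15 and 7.77 in ctrl and 7.65 to 8.34 (median 8.18) in late libraries. The groups overlapped, and ctrl replicate 374 lay far below the other 2 ctrl libraries. The log2 difference of 0.77 (SE 0.35) did not pass the test (adjusted p = 0.151). It was 1.12 (adjusted p = 0.0585) without ctrl replicate 373 and 0.19 (adjusted p = 0.8) without ctrl replicate 374, the limits of its adjusted p over all alternatives being 0.00148 and 0.8.

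Cfb, the alternative pathway counterpart of C2, had levels of 8.02, 6.42 and 7.07 in ctrl and 8.39 to 9.07 (median 8.64) in late libraries. No late library overlapped with ctrl. The rise of 1.51 log2 (SE 0.33), or 2.84-fold, was the largest estimate among the 8 members in this comparison (adjusted p = 0.00133). Over all alternatives it fell as low as 1.13 log2, below the lowest values of C1ra (1.17) and C4b (1.16). Its rank thus did not hold in every alternative. Cfb and C2 are neighbours on the minus strand of chromosome 17 (GRCm38), at chr17:34856374-34862518 and chr17:34862604-34898265, with 85 bases between them. C4b lies on the same strand at chr17:34728380-34743882, and C3 farther along the chromosome at chr17:57203970-57228136.

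C3 had levels of 9.62, 9.03 and 8.22 in ctrl and 9.12 to 10.39 (median 9.64) in late libraries. The groups overlapped, since ctrl replicate 373 lay within the late range. The rise of 0.73 log2 (SE 0.29) passed narrowly (adjusted p = 0.0899). It no longer passed without ctrl replicate 374 (adjusted p = 0.158), ctrl replicate 375 (0.37 log2, adjusted p = 0.537), HL60 late replicate 397 (adjusted p = 0.103), ML1 late replicate 581 (adjusted p = 0.196), 582 (adjusted p = 0.117) or 583 (adjusted p = 0.168). Nor did it pass with no filter (adjusted p = 0.234), no variance trend (adjusted p = 0.154), robust variances (adjusted p = 0.123) or only the groups compared (adjusted p = 0.113). Over all alternatives its adjusted p ran from 0.000715 to 0.537.

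Cd55, the membrane protein that takes C3 convertases apart, had levels of 9.03, 9.50 and 9.32 in ctrl and 9.18 to 9.75 (median 9.44) in late libraries. The groups overlapped, and the log2 difference was 0.16 (SE 0.21, 95% interval -0.28 to 0.59, adjusted p = 0.702). Serping1 is at chr2:84765387-84775444 and Cd55 at chr1:130439027-130462744, both on the minus strand.

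The late values depend on how libraries are put on a common scale. Rescaling every library to the same total raised the median of all genes in late against ctrl cells from 0.02 to 0.71 log2 and turned the calls from 1321 higher and 1474 lower into 7786 higher and 516 lower. On that scale all 8 members were called higher, C2 by 1.46 and Cd55 by 0.85 log2. Relative to the median of all genes, the members' changes are the same on either scale by construction. Quantile normalization left the median of all genes at 0.04 log2, with 1352 genes called higher and 1364 lower. The totals include very abundant genes such as those of the osteoblast list, whose sum was lower in late than in ctrl libraries. How far such genes set the totals was not tested.

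**Figure D2:**
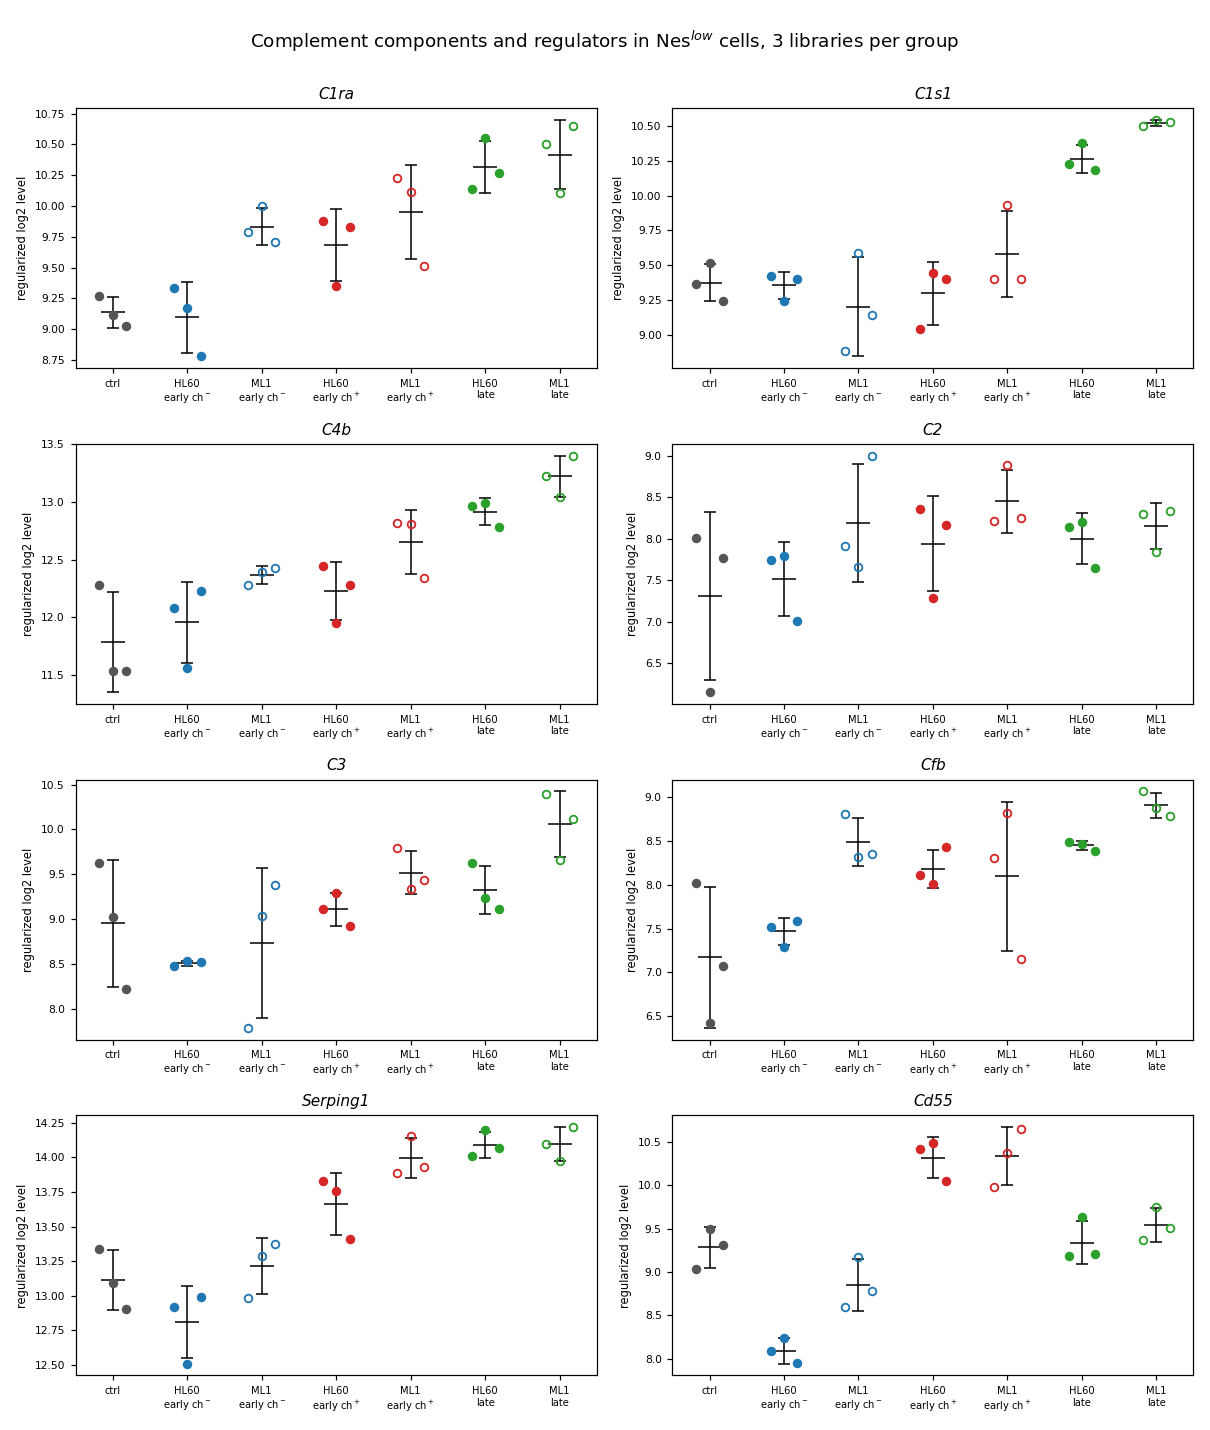
Regularized log2 level (vertical axis) of each member in every library, by group (horizontal axis). Points are libraries, filled for ctrl and HL60 and open for ML1, and the bars give the mean and SD of 3 libraries; Cd55 peaks in early ch+ cells (9.98 to 10.65), while C1s1 stands apart in late cells (10.18 to 10.54).

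With the lines taken apart, HL60 late cells had 5 of 8 members higher than ctrl (6.46% of all genes) and ML1 late cells 6 of 8 (9.89% of all genes). The difference was C3, with 9.62, 9.23 and 9.12 in HL60 late libraries (0.37 log2 over ctrl, SE 0.30, adjusted p = 0.549) and 10.39, 9.66 and 10.12 in ML1 late libraries (1.101 log2, SE 0.30, adjusted p = 0.0091). Every ML1 late library was above every HL60 late library for this gene, by a small margin. Tested directly, the lines differed by -0.73 log2 (HL60 minus ML1, SE 0.30), which did not pass (adjusted p = 0.292). In that direct test 0 of 8 members were called by limma, against 4.09% of all genes, and 1 of 8 had an unadjusted p under 0.05, against 10.9% of all genes.

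Of the other late members, Serping1 and C1ra overlapped between the lines, and C1s1, C4b and Cfb did not. With C3 these were 4 of 8 members, where 21.8% of all genes had no overlap between the late lines. Serping1 had 14.01, 14.20 and 14.07 in HL60 and 14.10, 13.97 and 14.22 in ML1 late libraries. C1s1 had 10.23, 10.38 and 10.18 in HL60 and 10.50, 10.54 and 10.53 in ML1 late libraries. For C1s1, C4b and Cfb each ML1 library was higher than each HL60 library, by differences that did not pass the test (HL60 minus ML1, C1s1 -0.26 log2, adjusted p = 0.742, C4b -0.31 log2, adjusted p = 0.63, Cfb -0.46 log2, adjusted p = 0.75).

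Marker lists also set the late lines apart. In HL60 against ML1 late cells 8 of 8 osteoblast, 4 of 8 chondrocyte and 1 of 6 smooth muscle markers were higher, and 1 of 9 CAR/stromal markers was lower. The osteoblast list summed to 18.61 to 18.99 in HL60 and 16.30 to 17.00 in ML1 late libraries, and the chondrocyte list to 13.21 to 13.85 and 11.38 to 12.02. The endothelial list had 7.69 to 8.15 in HL60 and 7.25 to 7.27 in ML1 late libraries, though limma called 0 of its 5 tested genes, with 3 at an unadjusted p under 0.05. Of 8 leukocyte, 6 red cell and 2 macrophage markers limma called 0, with 0 at an unadjusted p under 0.05. The part of these shifts in the line differences of the members was not tested.

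Early ch+ cells, those that had taken up mCherry, were compared with ctrl to ask what was already altered near few leukemic cells. Of the 8 members 4 rose (C1ra, C4b, Serping1 and Cd55) and 0 fell, where 3.41% of all genes rose and 2.75% fell. The median change of the members was 0.70 log2, and that of all genes 0.01. At an unadjusted p under 0.05, 6 of 8 members and 16.8% of all genes passed. Early ch+ and ctrl libraries did not overlap for 3 of 8 members and for 8.06% of all genes. The count of 4 members that rose was 2 without ctrl replicate 374 or 375 or ML1 early ch+ replicate 538 or 539.

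Cd55 ranged from 9.98 to 10.65 (median 10.39) in early ch+ libraries. All 6 were above the 3 ctrl libraries, whose highest value was 9.50. The rise was 1.04 log2 (SE 0.21), or 2.06-fold (limma, adjusted p = 0.00261). Serping1 ranged from 13.41 to 14.16 (median 13.86), also above every ctrl library, and rose by 0.72 log2 (SE 0.16, adjusted p = 0.00526).

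C1ra ranged from 9.35 to 10.23 (median 9.85) in early ch+ libraries, above ctrl without overlap, and rose by 0.68 log2 (SE 0.21, adjusted p = 0.0684). C4b ranged from 11.95 to 12.82 (median 12.39) and overlapped with ctrl replicate 373. Its rise was 0.66 log2 (SE 0.19, adjusted p = 0.0514). These calls were narrow. Without ctrl replicate 373, 374 or 375, or ML1 early ch+ replicate 538 or 539, C1ra had adjusted p = 0.112, 0.175, 0.216, 0.138 and 0.13. C4b had adjusted p = 0.246, 0.249, 0.108 and 0.11 without ctrl replicate 374 or 375 or ML1 early ch+ replicate 538 or 539. Over all alternatives the adjusted p ran from 0.0146 to 0.216 for C1ra and from 0.00847 to 0.249 for C4b.

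The other 4 members did not pass. C1s1 had 9.04 to 9.94 (median 9.40), around the ctrl values, and a log2 difference of 0.06 (95% interval -0.28 to 0.40, adjusted p = 0.895), with the sign turned without ML1 early ch+ replicate 539 (-0.04) or ctrl replicate 375 (-0.0024). C3 had 8.92 to 9.79 (median 9.31) and a difference of 0.36 (adjusted p = 0.586), or -0.01 without ctrl replicate 375. Both genes overlapped with ctrl. Cfb had 7.15 to 8.82 (median 8.21) and a difference of 0.97 (SE 0.33, adjusted p = 0.104), which was 0.59 without ctrl replicate 374 (adjusted p = 0.456) and was called without ctrl replicate 373 (1.39, adjusted p = 0.023), HL60 early ch- replicate 528 (0.97, adjusted p = 0.0885), ML1 early ch- replicate 543 (0.97, adjusted p = 0.0805) or ML1 early ch+ replicate 541 (1.17, adjusted p = 0.0304), with 7 groups (adjusted p = 0.0376), with rescaling to library totals (1.04, adjusted p = 0.0798) and with near copies summed (1.05, adjusted p = 0.0664). C2 had 7.29 to 8.89 (median 8.24) and a difference of 0.89 (SE 0.35, adjusted p = 0.186), which was 0.31 without ctrl replicate 374 (adjusted p = 0.732) and was called without ctrl replicate 373 (1.24, adjusted p = 0.0936) or HL60 early ch+ replicate 524 (1.07, adjusted p = 0.088) and with near copies summed (1.01, adjusted p = 0.0647). The adjusted p ran from 0.023 to 0.456 for Cfb and from 0.0647 to 0.732 for C2 over all alternatives.

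Early ch- cells came from the same stage without mCherry uptake. Against ctrl, 0 of 8 members rose and 1 fell, Cd55, where 1.13% of all genes rose and 0.786% fell. At an unadjusted p under 0.05, 2 of 8 members passed by limma, Cd55 and Cfb, and 11.9% of all genes. The median change of the members was 0.11 log2. The count of 1 was 0 without ctrl replicate 374 or 375 or HL60 early ch- replicate 527 or 529, and 2 without ctrl replicate 373.

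Cd55 ranged from 7.94 to 9.18 (median 8.42) in early ch- libraries. Only ML1 replicate 544 reached into the ctrl range, and the other 5 libraries were below it. The fall was 1.76-fold (log2 -0.81, SE 0.21, adjusted p = 0.0506). It did not pass without ctrl replicate 374 (-0.71 log2, adjusted p = 0.254), ctrl replicate 375 (adjusted p = 0.169), HL60 early ch- replicate 527 (adjusted p = 0.106) or HL60 early ch- replicate 529 (adjusted p = 0.108), and its adjusted p ran from 0.00829 to 0.254 over all alternatives. Cfb ranged from 7.29 to 8.81 (median 7.95) and differed from ctrl by 0.81 log2 (SE 0.33, adjusted p = 0.308). The difference was 1.23 (adjusted p = 0.0958) without ctrl replicate 373. Over all alternatives it ran from 0.43 to 1.23 log2, with adjusted p from 0.0958 to 0.704.

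Serping1 ranged from 12.51 to 13.37 (median 12.99), C1s1 from 8.88 to 9.59 (median 9.32) and C3 from 7.79 to 9.38 (median 8.53) in early ch- libraries. C1ra ranged from 8.78 to 10.00 (median 9.52), C4b from 11.56 to 12.43 (median 12.25) and C2 from 7.004 to 9.01 (median 7.77). Each of these 6 overlapped with ctrl, with log2 differences from -0.33 (C3) to 0.54 (C2), and none passed the test. Leaving out ctrl replicate 373 turned C3 to 0.0005 and Serping1 to 0.01, and leaving out ctrl replicate 374 turned C2 to -0.04.

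Cells with and without mCherry were compared directly. No ctrl level enters the difference, but the fit takes its variance from all groups. Of the 8 members 2 were higher in early ch+ cells, Serping1 and Cd55, and 0 were lower. Among all genes 3.58% were higher and 2.68% lower. The median change of the members was 0.35 log2, and that of all genes -0.02, and 3 of 8 members and 15.4% of all genes had an unadjusted p under 0.05. The labels did not overlap for 2 of 8 members and for 3.01% of all genes.

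Marker lists differed between the labels too. In ch+ against ch- cells 8 of 8 chondrocyte and 5 of 6 smooth muscle markers were lower, with medians of -3.21 and -1.97 log2, as was 1 of 8 osteoblast markers, and 1 of 9 CAR/stromal markers was higher. Of 8 tested leukocyte, 6 red cell, 5 endothelial and 2 macrophage markers limma called 0, with 0 at an unadjusted p under 0.05. The part of these cell types in the label differences of the members was not tested.

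Cd55 had 8.09, 8.24 and 7.94 in HL60 and 8.60, 9.18 and 8.78 in ML1 early ch- libraries. The ch+ libraries had 10.42, 10.48 and 10.04 for HL60 and 9.98, 10.37 and 10.65 for ML1. Every ch+ library was above every ch- library of either line, and the lowest values were those of HL60 ch- cells. The difference was 1.85 log2 (SE 0.17), or 3.61-fold (limma, adjusted p = 1.71e-08).

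Taken by line, Cd55 was 4.67-fold higher in HL60 ch+ cells (log2 2.22, SE 0.20, adjusted p = 1.87e-08) and 2.80-fold higher in ML1 ch+ cells (log2 1.48, SE 0.20, adjusted p = 1.75e-05). The difference between these changes was 0.74 log2 (SE 0.28), which did not pass (adjusted p = 0.66).

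Serping1 had 12.92, 12.51 and 12.99 in HL60 and 12.98, 13.29 and 13.37 in ML1 early ch- libraries. The ch+ libraries had 13.83, 13.76 and 13.41 for HL60 and 13.89, 14.16 and 13.93 for ML1. Again the labels did not overlap. The difference was 0.82 log2 (SE 0.13), or 1.76-fold (adjusted p = 5.97e-05), with 0.86 in HL60 (adjusted p = 0.000238) and 0.78 in ML1 (adjusted p = 0.000837).

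None of the 6 members besides Serping1 and Cd55 passed between the labels. C3, with a median of 8.53 in ch- and 9.31 in ch+ libraries, differed by 0.69 log2 (SE 0.24, adjusted p = 0.111). It was called without ctrl replicate 373 (adjusted p = 0.0863), ctrl replicate 375 (adjusted p = 0.0765), ML1 early ch- replicate 544 (adjusted p = 0.0837) or 546 (0.84 log2, adjusted p = 0.035), HL60 early ch+ replicate 525 (adjusted p = 0.0852) or ML1 late replicate 581 (adjusted p = 0.0922), and likewise with only the groups compared (adjusted p = 0.0397), with 7 groups (adjusted p = 0.0514) and with rescaling to library totals (0.84 log2, adjusted p = 0.0487). Its adjusted p ran from 0.035 to 0.312 over all alternatives. The other 5 had differences of 0.16 (Cfb and C1s1) to 0.35 log2 (C1ra), with adjusted p of at least 0.324. For 2 of them the lines had opposite signs. Cfb differed by 0.71 log2 in HL60 (adjusted p = 0.349) and by -0.40 in ML1 (adjusted p = 0.658), and C1s1 by -0.06 in HL60 (adjusted p = 0.945) and 0.38 in ML1 (adjusted p = 0.351).

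In each line 2 of 8 members were higher in ch+ than ch- cells, Serping1 and Cd55 in either case, against 2.27% of all genes in HL60 and 2.34% in ML1. Between the lines, limma called 0 of 8 members among early ch+ cells (0.0154% of all genes) and 0 of 8 among early ch- cells (0.0539% of all genes). At an unadjusted p under 0.05 these counts were 2 (7.61% of all genes) and 5 (6.82% of all genes). The test of whether the label effect differed between lines called 0 of 8 (0.00771% of all genes), with 2 at an unadjusted p under 0.05, Cd55 and Cfb (6.40% of all genes).

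Of the 8 members 4 had no overlap between the lines in early ch- libraries, as had 11.6% of all genes. C1ra had 9.34, 9.17 and 8.78 in HL60 and 9.79, 10.00 and 9.71 in ML1 early ch- libraries. Cfb had 7.52, 7.29 and 7.59 in HL60 and 8.81, 8.32 and 8.35 in ML1 early ch- libraries. Cd55, given above, and C4b, with at most 12.23 in HL60 and at least 12.28 in ML1, did not overlap either. These 4 genes were higher in each ML1 library, but no difference passed (HL60 minus ML1, C1ra -0.74 log2, SE 0.20, adjusted p = 0.333, Cfb -1.02 log2, SE 0.33, adjusted p = 0.441, Cd55 -0.76 log2, SE 0.20, adjusted p = 0.29, C4b -0.41 log2, SE 0.18, adjusted p = 0.666).

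Late cells were also compared with early ch+ cells, both exposed to leukemia, again with a variance drawn from all groups. Of the 8 members 3 were higher in late cells (C1s1, C1ra and C4b) and 1 was lower (Cd55), where 8.79% of all genes were higher and 10.9% lower. The median change of the members was 0.46 log2, and that of all genes 0.02. Late and early ch+ libraries did not overlap for 2 of 8 members and for 8.75% of all genes. Marker lists differed here as well. In late cells 8 of 8 leukocyte, 6 of 6 red cell, 6 of 8 osteoblast and 3 of 5 endothelial markers were lower, and 3 of 6 smooth muscle markers were higher. Of 9 CAR/stromal markers 4 were higher and 2 lower, and 1 osteoblast marker was higher and 1 of 8 chondrocyte and 1 of 2 macrophage markers lower. Their part in the values of the members was not tested.

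C1s1 separated the stages most clearly among the proteases. Its highest early ch+ value was 9.94 and its lowest late value 10.18. The difference was 0.96 log2 (SE 0.14), or 1.94-fold (adjusted p = 4.73e-06). C1ra was 0.55 log2 higher (SE 0.17, adjusted p = 0.0273) and C4b 0.62 log2 higher (SE 0.16, adjusted p = 0.00526), with overlap between the groups for either gene.

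Cd55 went the other way, from 9.98 to 10.65 in early ch+ to 9.18 to 9.75 in late libraries, with no overlap. The fall was 1.84-fold (log2 -0.88, SE 0.17, adjusted p = 0.000357). Rescaled to equal library totals, which moves the median of all genes from 0.02 to 0.63 and the calls from 1140 higher and 1415 lower to 8443 higher and 588 lower, the difference was -0.27 (adjusted p = 0.177). Over all alternatives its adjusted p ran from 2.06e-05 to 0.177.

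Serping1 (0.26 log2, SE 0.13, adjusted p = 0.192), Cfb (0.54 log2, adjusted p = 0.205), C3 (0.38 log2, adjusted p = 0.357) and C2 (-0.12 log2, adjusted p = 0.861) did not pass in this comparison. On the scale of equal library totals C2 turned to 0.50, and Cfb (1.16), C3 (0.99) and Serping1 (0.88) were called higher. For Serping1 the groups overlapped, with 13.41 to 14.16 in early ch+ and 13.97 to 14.22 in late libraries. Without ML1 early ch+ replicate 539 its difference was 0.33 (adjusted p = 0.0968). It was also called with quantile normalization (0.49, adjusted p = 0.00792) and with 7 groups (adjusted p = 0.0719), and its adjusted p ran from 7.3e-06 to 0.418 over all alternatives.

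**Figure D3:**
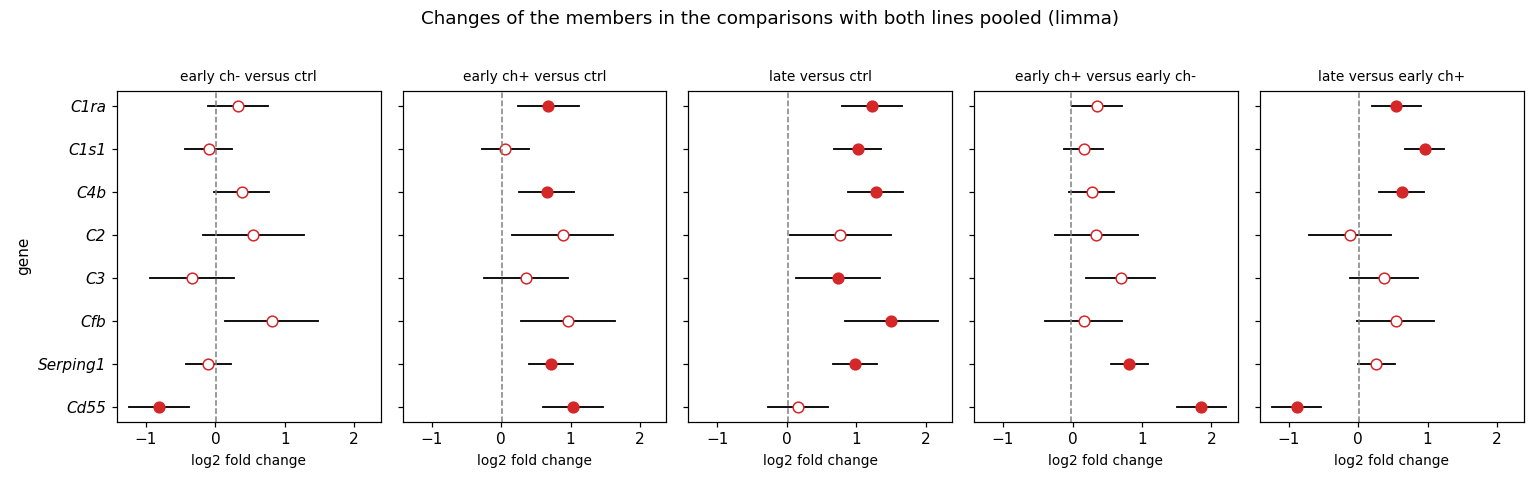
Log2 fold change of each member (horizontal axis) in the 5 comparisons with both lines pooled, with 95% intervals from limma as lines. Filled points passed an adjusted p of 0.1 and the dashed line is the median of all genes. In late against ctrl cells 6 of 8 members passed. Cd55 changed direction between comparisons, from -0.88 (late against early ch+) to 1.85 (early ch+ against early ch-).

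Across the 21 libraries the members did not follow 1 shared pattern. C1ra and C4b had the highest Pearson r of any pair (0.89), followed by C4b with Serping1 (0.84) and C4b with Cfb (0.83). The lowest was that of C1s1 with C2 (0.12), and Cd55 had r of 0.15 with Cfb, 0.17 with C1s1 and 0.66 with Serping1. These values describe libraries that share groups and composition.

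For each member the 2 tested genes with the most similar profile were found. C4b was closest to Il1rn (r = 0.97), the interleukin-1 receptor antagonist, and to Ebf3 (0.96), a transcription factor of CAR cells that is also on the CAR/stromal list. Cfb was closest to H2-K1 (0.89) and H2-D1 (0.87), both classical MHC class I genes. C1s1 was closest to Ccn5 and Steap4 (both 0.95), and C1ra to Il17ra (0.93), an interleukin-17 receptor chain, and Ttyh3 (0.91). Serping1 was closest to Cyp1b1 (0.94) and Plxdc2 (0.92), and Cd55 to Pam (0.93) and Medag (0.92). C3 was closest to Igfbp5 (0.85) and Cpne8 (0.82), and C2, with the weakest likeness, to Lman2l (0.76) and Acyp1 (0.75).

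Of 49 other complement genes listed, 44 were in the table and 20 passed the filter on low values. In late against ctrl cells 4 of these 20 rose, 3 fell and 13 did not pass. Among all genes 10.2% rose and 11.4% fell there. In early ch+ against ctrl cells 3 rose and 0 fell, in early ch- against ctrl cells 2 rose and 0 fell, and between early labels 1 was higher in ch+ cells and 0 lower. The shares of all genes were, in that order, 3.41%, 1.13% and 3.58% higher and 2.75%, 0.786% and 2.68% lower. In late against early ch+ cells 6 were higher and 5 lower, against 8.79% and 10.9% of all genes. Their median change in late against ctrl cells was 0.55 log2.

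Among inhibitors, Cd59a, which blocks the membrane attack complex, had 9.54, 9.40 and 9.72 in ctrl, 8.87, 9.29 and 8.58 in HL60 late and 6.84, 6.87 and 6.94 in ML1 late libraries. All late libraries were below ctrl, and those of ML1 below those of HL60, as they were for the summed osteoblast and chondrocyte markers. The part of those cell types in the Cd59a values was not tested. Late and ctrl libraries did not overlap for 19.1% of all genes, nor the late lines for 21.8%. The fall in late against ctrl cells was 1.65 log2 (adjusted p = 0.00162), and Cd59a stayed lower on the scale of equal library totals. Clu (clusterin) rose by 0.99 log2 in late cells (adjusted p = 0.000572).

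Csmd1, a large membrane protein with complement-inhibiting domains, rose by 2.25 log2 in late against ctrl cells (adjusted p = 2.17e-07). It had 8.44, 8.97 and 8.51 in ctrl, 10.56, 10.49 and 10.34 in HL60 late and 11.33, 11.36 and 11.29 in ML1 late libraries. Each step was free of overlap, as for 26.3% of all genes between HL60 late and ctrl and 21.8% between the late lines. Against early ch+ cells it was 1.72 log2 higher in late cells (adjusted p = 2.89e-07).

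Among receptors, Cd93 rose by 0.90 log2 in late against ctrl cells (adjusted p = 0.0239), which did not pass without ctrl replicate 374 (0.73, adjusted p = 0.15). C5ar1, the C5a receptor, rose by 1.19 (adjusted p = 0.0903), a narrow call. It was 0.54 without ctrl replicate 375 (adjusted p = 0.569) and 1.83 without 373, and did not pass without ctrl replicate 374 (adjusted p = 0.183), HL60 late replicate 397 (adjusted p = 0.107) or 398 (adjusted p = 0.149), or ML1 late replicate 581 (adjusted p = 0.133), 582 (adjusted p = 0.13) or 583 (adjusted p = 0.122). The adjusted p of Cd93 ran from 6.34e-05 to 0.15 and that of C5ar1 from 0.00261 to 0.569 over all alternatives.

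Itgam and Itgb2, the chains of complement receptor 3 on myeloid cells, rose by 2.62 and 1.26 log2 in early ch+ (adjusted p = 0.00328 and 0.0469) and by 2.34 and 1.57 log2 in early ch- cells (both adjusted p = 0.0253). In early ch+ cells Itgb2 did not pass without ctrl replicate 373 (adjusted p = 0.137), 374 (adjusted p = 0.127) or 375 (adjusted p = 0.117). Nor did it pass with no filter (adjusted p = 0.115) or only the groups compared (adjusted p = 0.104). Its adjusted p ran from 0.0102 to 0.137 over all alternatives. In early ch- cells Itgam did not pass with no filter (adjusted p = 0.12). It was also lost without ctrl replicate 374 (adjusted p = 0.115) or 375 (adjusted p = 0.11), as was Itgb2 without 374 (adjusted p = 0.1). There the adjusted p ran from 0.000814 to 0.12 for Itgam and from 0.00305 to 0.1 for Itgb2 over all alternatives. Beside them, 8 of 8 tested leukocyte markers rose in early ch+ and 7 of 8 in early ch- against ctrl cells, and 6 of 6 and 5 of 6 red cell markers did. The part of blood cell RNA in the integrin values was not tested.

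Colec12, a collectin of the cell surface that can bind complement-activating ligands, was 0.99 log2 higher in early ch+ than in early ch- cells (adjusted p = 9.32e-07) and 0.51 higher than in ctrl cells (adjusted p = 0.0413). The latter did not pass without ctrl replicate 373 (adjusted p = 0.137) or 374 (adjusted p = 0.174), and its adjusted p ran from 0.0178 to 0.174 over all alternatives. Late cells were 0.42 log2 lower than early ch+ cells (adjusted p = 0.0117), a direction that turned on the scale of equal library totals (0.19, adjusted p = 0.197). Cfp, which encodes properdin, fell by 1.27 log2 in late against ctrl cells (adjusted p = 0.0129), from mean levels of 4.65 to 3.38 near the bottom of the tested range. It did not pass on the scale of equal library totals (-0.58, adjusted p = 0.179), and its adjusted p ran from 0.00466 to 0.179 over all alternatives. The subunits of C1q were scarcely measured, with pooled group means of at most 2.16 for C1qb, 1.93 for C1qc and -1.45 for C1qa. Hc, the gene for C5, lay between -2.32 and -2.31 in group means.

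In late against early ch+ cells Cd59a (-1.60 log2, adjusted p = 0.000223), Itgam (-2.64, adjusted p = 4.95e-05) and Itgb2 (-1.32, adjusted p = 0.00169) were lower and Cd93 (0.75, adjusted p = 0.021) was higher. Beside the integrins, 8 of 8 tested leukocyte markers were lower too. Clu was 0.48 log2 higher (adjusted p = 0.0411), which did not pass without HL60 early ch+ replicate 524 (adjusted p = 0.118) or ML1 early ch+ replicate 541 (adjusted p = 0.129). C5ar1 was 1.03 log2 higher (adjusted p = 0.0758), which did not pass without HL60 early ch+ replicate 524 (adjusted p = 0.151) or 525 (adjusted p = 0.106), ML1 early ch+ replicate 539 (adjusted p = 0.161) or 541 (adjusted p = 0.164), HL60 late replicate 398 (adjusted p = 0.148), or ML1 late replicate 581 (adjusted p = 0.124), 582 (adjusted p = 0.12) or 583 (adjusted p = 0.114). Over all alternatives the adjusted p ran from 5.75e-06 to 0.129 for Clu and from 0.00124 to 0.174 for C5ar1.

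Several members have close relatives from which short reads cannot always be told apart. Windows of 51 bases, the length of each read of a pair, were compared between annotated transcripts. Read pairs were not considered, so a pair may be told apart where the window of a single read is shared. Of the windows of Cfb 72.9% recur in other genes, and of those of C1ra 50.4%, C2 38.6%, C4b 33.9%, C1s1 21.4% and Cd55 7.87%, while C3 and Serping1 had 0. The relatives were C1rb and, to a lesser part, Gm18840 for C1ra, C1s2 for C1s1, C4a for C4b, Cd55b for Cd55, and for both C2 and Cfb the gene Gm20547, which shares sequence with each of them and was named after its values were seen. Gm18840 is absent from the table of levels, so it entered no sum.

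The other relatives had low levels in the table. C1s2 had group means of 4.97 to 6.20, C1rb of 4.91 to 6.03 and C4a of 5.70 to 6.73, and Cd55b of 1.96 to 2.37, below the filter. Gm20547 had group means of 1.48 to 4.43, with 1 library at 7.36 among the HL60 early ch+ ones. With each member summed with its relatives, 6 of 8 members were again called in late against ctrl cells, and 6 in early ch+ against ctrl cells, where C2 (1.01 log2, adjusted p = 0.0647) and Cfb (1.05 log2, adjusted p = 0.0664) were added. The same Gm20547 values, with the library at 7.36, entered both of these sums, so the added calls are not independent. How far they rest on that library was not tested. How the authors' counting split such reads remains uncertain.

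Of these relatives 2 were called higher in late than in early ch+ cells. C1s2 differed by 0.68 log2 (adjusted p = 0.0639) and did not pass without HL60 early ch+ replicate 523 (adjusted p = 0.159), 524 (adjusted p = 0.11) or 525 (adjusted p = 0.117), HL60 late replicate 398 (adjusted p = 0.114) or ML1 late replicate 581 (adjusted p = 0.103) or 583 (adjusted p = 0.117). C4a differed by 0.65 log2 (adjusted p = 0.0885) and did not pass without HL60 early ch+ replicate 524 (adjusted p = 0.257) or 525 (adjusted p = 0.127), HL60 late replicate 398 (adjusted p = 0.13) or 399 (adjusted p = 0.111), or ML1 late replicate 581 (adjusted p = 0.148), 582 (adjusted p = 0.114) or 583 (adjusted p = 0.192). Over all alternatives the adjusted p ran from 0.000183 to 0.159 for C1s2 and from 0.000273 to 0.257 for C4a.

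Of 14 listed regulators of complement gene expression, all tested, 6 rose and 0 fell in late against ctrl cells. Among all genes 10.2% rose and 11.4% fell there. Osmr, the oncostatin M receptor chain, had levels of 9.03, 9.72 and 9.64 in ctrl and 10.89 to 11.48 in late libraries. These did not overlap, as for 19.1% of all genes, and the rise was 1.70 log2 (adjusted p = 3.56e-07). The transcription factors Stat3 (0.74 log2, adjusted p = 0.000881), Relb (1.18, adjusted p = 0.012) and Cebpd (0.76, adjusted p = 0.0224) rose as well, with each library left out in turn too. By line, 3 of the 14 rose in HL60 late cells (Osmr, Stat3 and Relb) and 9 in ML1 late cells, and Cebpd did not pass in HL60 (0.64, adjusted p = 0.149). Among all genes 6.46% rose in HL60 and 9.89% in ML1 late cells. Tested directly, 1 of the 14 was lower in HL60 than in ML1 late cells and 0 were higher. That direct test called 4.09% of all genes in either direction.

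Nr1h3, the liver X receptor alpha, rose by 1.16 log2 (adjusted p = 0.0932) and by 0.57 without ctrl replicate 373 (adjusted p = 0.527). It also did not pass without ctrl replicate 374 (adjusted p = 0.101), HL60 early ch- replicate 527 (adjusted p = 0.103) or 529 (adjusted p = 0.101), HL60 late replicate 398 (adjusted p = 0.117) or 399 (adjusted p = 0.102), or ML1 late replicate 581 (adjusted p = 0.164), 582 (adjusted p = 0.126) or 583 (adjusted p = 0.133). Over all alternatives its adjusted p ran from 0.00216 to 0.527.

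In early ch+ against ctrl cells 1 of the 14 rose, against 3.41% of all genes. This was Osmr (0.61 log2, adjusted p = 0.086). It did not pass without ctrl replicate 373 (0.39 log2, adjusted p = 0.403), ctrl replicate 375 or HL60 early ch+ replicate 524 (both adjusted p = 0.109), or ML1 early ch+ replicate 538 (adjusted p = 0.162) or 539 (adjusted p = 0.165), and its adjusted p ran from 0.0132 to 0.403 over all alternatives. In early ch- against ctrl cells 0 were called by limma, with 1 at an unadjusted p under 0.05. Among all genes 1.13% rose, 0.786% fell and 11.9% had such an unadjusted p.

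Between early labels 4 were higher in ch+ cells, where 3.58% of all genes were higher and 2.68% lower. Among the 4 were Osmr (0.79 log2, adjusted p = 0.00193), Rela (0.62, adjusted p = 0.0301) and Il6st (0.40, adjusted p = 0.00631). These 3 passed with each library left out in turn. Cebpd was lower (-0.57, adjusted p = 0.0901), a call lost without HL60 early ch- replicate 527 (adjusted p = 0.132), 528 (adjusted p = 0.12) or 529 (adjusted p = 0.15), ML1 early ch- replicate 543 (adjusted p = 0.154) or 544 (adjusted p = 0.18), HL60 early ch+ replicate 523 (adjusted p = 0.163) or 524 (adjusted p = 0.133), ML1 early ch+ replicate 538 (adjusted p = 0.118) or 541 (adjusted p = 0.234), or ML1 late replicate 583 (adjusted p = 0.102). Its adjusted p ran from 0.0417 to 0.284 over all alternatives.

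In late against early ch+ cells 7 regulators were higher and 0 lower, where 8.79% of all genes were higher and 10.9% lower. Relb (1.18 log2, adjusted p = 0.00215), Osmr (1.096, adjusted p = 8.12e-06), Cebpd (0.66, adjusted p = 0.0142) and Stat3 (0.50, adjusted p = 0.00504) passed with each library left out in turn. Cebpb (0.72, adjusted p = 0.064) did not pass without ML1 early ch+ replicate 538 (adjusted p = 0.149) or 541 (adjusted p = 0.105), HL60 late replicate 398 (adjusted p = 0.131), or ML1 late replicate 581 (adjusted p = 0.109) or 583 (adjusted p = 0.18). Irf1 (0.55, adjusted p = 0.0505) did not pass without ML1 early ch+ replicate 538 (adjusted p = 0.146) or ML1 late replicate 582 (adjusted p = 0.107) or 583 (adjusted p = 0.132). Ifngr1 (0.41, adjusted p = 0.0695) did not pass without HL60 early ch+ replicate 524 (adjusted p = 0.199), ML1 early ch+ replicate 541 (adjusted p = 0.214), HL60 late replicate 398 (adjusted p = 0.121) or 399 (adjusted p = 0.11), or ML1 late replicate 581 (adjusted p = 0.113), 582 (adjusted p = 0.104) or 583 (adjusted p = 0.14), nor with only the groups compared (adjusted p = 0.123). These 3 calls were thus the weakest of the 7, with adjusted p over all alternatives of 0.000241 to 0.18 (Cebpb), 3.89e-05 to 0.146 (Irf1) and 1.7e-05 to 0.214 (Ifngr1).

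Of 14 tested acute phase and interferon genes, 12 rose in late and 4 in early ch+ against ctrl cells, with medians of 1.71 and 0.54 log2 and none lower, and 1 rose in early ch- cells. Among all genes 10.2% rose in late, 3.41% in early ch+ and 1.13% in early ch- cells. By line, 9 rose in HL60 and 12 in ML1 late cells, and 4 were lower in HL60 than in ML1 late cells when tested directly. Among all genes 6.46% and 9.89% rose by line, and the direct test called 4.09%. Between early labels 1 was higher in ch+ cells, and in late against early ch+ cells 10 were higher and 1 lower. Among all genes 3.58% were higher between labels, and 8.79% were higher and 10.9% lower in late cells. Lcn2, the 1 that rose in early ch- cells and was lower in late than in early ch+ cells, was named after its values were seen, and leukocyte markers took the same course.

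Promoters of C1s1, C3 and Cd55 are shown. That of C1ra is not, because the bases before its start in the promoter table lie largely inside the annotated gene. Sequences are from RefSeq on GRCm38.p6, where C1ra, C1s1, C3 and Cd55 of the 8 members had an entry, and give the 250 bases before the start of the gene, 5′ to 3′. They lie on the minus strand at chr6:124542360-124542609 (C1s1), chr17:57228137-57228386 (C3) and chr1:130462745-130462994 (Cd55). Motifs were searched on both strands of the table's whole promoter windows, which reach past the start, and capitals mark each match.

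C1s1: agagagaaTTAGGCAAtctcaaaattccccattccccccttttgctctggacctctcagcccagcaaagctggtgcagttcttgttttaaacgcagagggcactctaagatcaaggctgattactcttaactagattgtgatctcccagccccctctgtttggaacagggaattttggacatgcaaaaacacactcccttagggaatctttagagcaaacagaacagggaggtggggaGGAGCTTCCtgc
C3: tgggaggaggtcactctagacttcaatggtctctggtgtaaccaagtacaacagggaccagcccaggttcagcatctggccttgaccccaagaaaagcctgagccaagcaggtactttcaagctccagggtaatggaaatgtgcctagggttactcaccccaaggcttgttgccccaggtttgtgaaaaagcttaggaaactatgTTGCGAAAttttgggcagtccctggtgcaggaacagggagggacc
Cd55: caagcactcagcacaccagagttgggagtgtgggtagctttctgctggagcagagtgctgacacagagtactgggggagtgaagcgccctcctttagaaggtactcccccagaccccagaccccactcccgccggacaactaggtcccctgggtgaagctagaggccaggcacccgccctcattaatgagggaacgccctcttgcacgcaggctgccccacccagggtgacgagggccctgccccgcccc

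In C1s1 the capitals are a C/EBP motif (TTGCNNAA), 242 bases before the start, and an NF-kB motif (GGANNTTCC), 12 bases before it. A second C1s1 entry starts farther downstream, where the NF-kB match lies 50 bases before the start and the C/EBP match falls outside the window. In C3 they are a C/EBP motif 45 bases before the start, and the Cd55 window held none of the motifs. Of all 32851 promoters in the table, 10.8% hold the C/EBP motif and 4.26% the NF-kB motif. The STAT motif (TTCNNNGAA, in 8.30% of promoters) matched in C1ra, past the start of the gene, as did another C/EBP motif, and the interferon-response core (AAANNGAAA, in 10.6%) matched in none of the 4. A match describes letters in a window and not a site in use.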

How the data were processed

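The authors aligned the strand-specific reads to mm10 with STAR 2.5.1b, counted genes with RSEM 1.2.29, and scaled and regularized the counts with DESeq2, and the deposited log2 values were used unchanged. Of 26852 Ensembl genes, 26686 had a symbol and 166 did not. Members and lists were chosen by name, with earlier results of these data known. The rule for named genes takes all 8 members, and draws on other complement genes and regulators called in a comparison of pooled lines, near copies, and the 2 genes nearest each member by Pearson r, and genes outside it were named after their values were seen.

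Genes with a mean of at least log2(10), 12976 in all, were fitted with limma 3.58.1 (R 4.3.3) on 4 groups with the lines pooled, or on 7 groups for the lines, with a variance trend. Tests were two-sided, p-values were adjusted by Benjamini-Hochberg over all genes tested, and a gene was called at an adjusted p under 0.1. Tables and figures used Python 3.11.15, numpy 2.4.6, pandas 2.3.3 and matplotlib 3.10.9. Alternatives were no filter, a stricter filter, quantile normalization, rescaling to library totals, no variance trend, robust variances, only the groups compared, 7 groups, a threshold of 0.05 and leaving out each library. Summing near copies was chosen after seeing the data.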

Additional observations from a re-analysis of the deposited data

Results flagged for a closer look

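Other complement genes differed between the lines by a direct limma test (HL60 minus ML1). In late cells Cd59a by 2.0322 log2 (adjusted p = 9.95e-09) and Csmd1 by -0.8674 log2 (adjusted p = 0.00305). In early ch- cells Csmd1 differed by -0.875 log2 (adjusted p = 0.0882). The cause of these differences was not tested.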

How the results depend on the processing

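Of 1240 estimates for the 8 members (40 results, 31 alternatives, 21 of them leaving out 1 library), 1168 kept their direction and their side of the threshold, 35 lost the call, 29 gained it and 8 turned direction. The count of 4 members in early ch+ against ctrl cells was 2 with no filter, with no variance trend and at an adjusted p under 0.05, 5 with rescaling and with 7 groups, 6 with near copies summed, and 2 to 5 with a library left out. The count of 1 in early ch- against ctrl cells was 0 with no filter, with no trend, with only the groups compared and at 0.05, and 0 to 2 with a library left out. Rescaling to library totals gave 8 in place of 5 for HL60 late against ctrl and 1 in place of 0 for HL60 against ML1 late cells, and turned Colec12 (0.1924) and C2 (0.4973) in late against early ch+ cells; it changes every gene of a library by the same amount.

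With a library left out, the log2 difference from ctrl ran from -0.0368 to 0.1424 for C1s1 and from -0.0099 to 0.6935 for C3 in early ch+ cells. In early ch- cells it ran from -0.0355 to 0.8935 for C2, from -0.7028 to 5e-04 for C3 and from -0.2052 to 0.0115 for Serping1. In late against early ch+ cells C2 ran from -0.3005 to 0.02. The cause was not tested. Rescaling moved the share of called genes that were higher from 55.4% to 66.7% in early ch+ and from 59% to 41.9% in early ch- against ctrl cells, from 57.1% to 78.6% between early labels, where the median of all genes moved to 0.13, from 47.1% to 93.1% in HL60 late and from 45% to 93.1% in ML1 late against ctrl cells, and from 77.2% to 37% between late lines. A pseudocount was not run, since the values were already log2. The depth of each library was unknown.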
